A study of Mus musculus with 9 samples.

Results

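The genes described here are 40 components of the endoplasmic reticulum (ER) that fold, import and dispose of secreted and membrane proteins, together with sensors of the unfolded protein response. They were taken by gene symbol from a deposited table of 18049 mouse genes, and all 40 were listed in it and passed the filter on low values, among 11309 genes tested. By role, 15 act in folding, 13 in translocation and signal peptide handling, 9 in ER-associated degradation and 3 as sensors or their transcription factors. RNA came from bone marrow-derived macrophages (BMDMs) of C57BL/6 animals, labelled as 8 weeks of age, cultured in RPMI and treated for 6 h. Cells received 1 µM 15d-PGJ2, an electrophilic cyclopentenone prostaglandin (3 libraries), 1 µM 15d-PGJ2-PC, a compound whose suffix the labels leave unexplained (3 libraries), or medium alone as control (3 libraries). All groups share strain, age, treatment time and protocol, no allele or transgene is labelled, and the labels do not say whether the 3 libraries of a group came from separate cultures or animals, so the p-values measure the spread between libraries, which may be technical.

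Secreted and membrane proteins enter the ER through the Sec61 channel, lose their signal peptide, and fold with the help of BiP, lectin chaperones and disulfide isomerases. When unfolded proteins build up, the sensors IRE1, ATF6 and PERK are activated. The transcription factors XBP1 and ATF6 then raise genes for chaperones, translocation and degradation, and ATF4 is the transcription factor of the PERK arm. Macrophages are secretory cells that express this machinery at rest. In bulk RNA, fewer cells of a type and less RNA per cell cannot be told apart.

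The cis elements through which ATF6 and XBP1 are known to act were looked up in RefSeq promoters (build GRCm38.p6, 250 bases before to 50 after each start), which were found for 32 of the 40 genes. The search covered both strands for the ER stress response element (ERSE, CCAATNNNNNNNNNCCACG), ERSE-II (ATTGG and CCACG with 1 base between them), the unfolded protein response element (UPRE, TGACGTGG) and the CCACG box, which is contained in ERSE and ERSE-II. ERSE was present in 39 of 32851 promoters (0.119%) and in the promoters of 8 of the 32 matched genes (25.0%): Hspa5, Hsp90b1, Calr, Canx, Pdia6, Creld2, Syvn1 and Derl3. ERSE-II was present in 12 promoters (0.0365%), of which 1 was that of Herpud1. UPRE was found in 222 promoters (0.676%), 1 of them that of Txndc5, and the CCACG box in 32.8% of promoters and in those of 26 of the 32 genes. The UPRE letters hold a CCACG box on the opposite strand, so each UPRE match is a CCACG match too. Only exact matches to the fixed letters were counted, so near copies are left out. These matches describe the letters in the window and not binding. The stretches below show each ERSE or ERSE-II of these genes with 12 bases on either side, on the gene's strand, so that the copies can be compared, and capitals mark the fixed letters of the element; where CGTGG comes before ATTGG, the element lies on the opposite strand.
Hspa5: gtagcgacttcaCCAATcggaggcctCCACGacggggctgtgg
Calr: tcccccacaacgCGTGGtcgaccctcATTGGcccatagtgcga
Derl3: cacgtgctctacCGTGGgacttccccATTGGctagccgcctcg
Hsp90b1 (upstream copy): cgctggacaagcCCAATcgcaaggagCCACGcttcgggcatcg
Hsp90b1 (downstream copy): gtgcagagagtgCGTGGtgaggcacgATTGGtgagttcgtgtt
Canx: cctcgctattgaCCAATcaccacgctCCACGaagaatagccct
Pdia6: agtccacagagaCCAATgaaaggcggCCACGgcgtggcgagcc
Creld2: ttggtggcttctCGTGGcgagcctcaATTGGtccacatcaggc
Syvn1: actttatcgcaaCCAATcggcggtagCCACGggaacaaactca
Herpud1: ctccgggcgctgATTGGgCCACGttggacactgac

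The stretches lie at chr2:34772013-34772055, plus strand (Hspa5); chr8:84847063-84847105, minus strand (Calr); chr10:75893230-75893272, plus strand (Derl3); chr10:86705626-86705668, minus strand (Hsp90b1); chr10:86705521-86705563, minus strand (Hsp90b1). The others lie at chr11:50325788-50325830, minus strand (Canx), chr12:17266479-17266521, plus strand (Pdia6), chr15:88819508-88819550, plus strand (Creld2), chr19:6046520-6046562, plus strand (Syvn1), chr8:94386365-94386399, plus strand (Herpud1). The upstream promoter of Hspa5 is shown whole because its gene is a classic target of this response; it spans chr2:34771840-34772089, plus strand, and capitals mark CCAAT or CCACG boxes on either strand, of which there are 4 and 1.
Hspa5 promoter: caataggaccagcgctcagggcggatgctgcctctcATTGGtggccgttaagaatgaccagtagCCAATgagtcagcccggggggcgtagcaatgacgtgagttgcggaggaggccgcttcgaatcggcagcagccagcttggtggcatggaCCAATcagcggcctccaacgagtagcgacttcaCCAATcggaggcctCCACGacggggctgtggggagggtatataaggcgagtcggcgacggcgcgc

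The libraries held about 5.43 M reads each, as read from the smallest steps between FPKM values. Genes above 0 numbered 14690 to 14738 with 15d-PGJ2, 14459 to 14523 with 15d-PGJ2-PC and 15165 to 15277 in controls, without overlap. FPKM is the number of fragments scaled to transcript length and to the reads of the library. Macrophage markers were abundant in every library, with all 9 listed markers tested and summed levels of 5459 to 5800.0 FPKM with 15d-PGJ2, 6360 to 6531 FPKM with 15d-PGJ2-PC and 7135 to 7355 FPKM in controls. All 9 fell with 15d-PGJ2 and 7 with 15d-PGJ2-PC, against control. For this and the marker counts below, the shares of all tested genes were 25.0% fallen and 22.2% risen with 15d-PGJ2. With 15d-PGJ2-PC they were 14.1% fallen and 13.8% risen. RNA of other tissues was low but higher in controls: summed stromal markers (12 genes) ran from 11.4 to 14.1 FPKM with 15d-PGJ2, 10.4 to 11.1 with 15d-PGJ2-PC and 43.1 to 50.1 in controls. Skin markers (10 genes) ran from 4.50 to 6.62 FPKM with 15d-PGJ2, 3.08 to 5.09 with 15d-PGJ2-PC and 25.2 to 29.8 in controls, with Krt5, Krt14, Krt1 and Lor at 0 in all treated libraries, and erythroid markers (7 genes) ran from 0.33 to 0.76 FPKM with 15d-PGJ2, 0.15 to 0.91 with 15d-PGJ2-PC and 23.6 to 33.3 in controls. Neutrophil markers (8 genes) ran from 13.5 to 16.6 FPKM with 15d-PGJ2, 20.3 to 26.2 with 15d-PGJ2-PC and 28.0 to 31.6 in controls. Of 4 tested, 3 fell and 1 rose with 15d-PGJ2, and 1 fell and 1 rose with 15d-PGJ2-PC. The marker that rose was Mpo in both comparisons, against the direction of the sum. Mpo averaged 1.69 FPKM with 15d-PGJ2, 1.99 with 15d-PGJ2-PC and 0.0933 in controls. Of 3 tested plasma cell and B cell markers, 2 fell with 15d-PGJ2 and 1 with 15d-PGJ2-PC. The untested markers Jchain, Ms4a1 and Pou2af1 averaged at most 0.173 FPKM in any group, although Cd79b stood at 15.7 FPKM with 15d-PGJ2, 26.7 with 15d-PGJ2-PC and 43.1 in controls. Of 7 tested stromal markers 7 fell, of 7 skin markers 6 fell, and of 3 erythroid markers 3 fell with each compound against control, while 1 skin marker, Sfn, rose with 15d-PGJ2. The part of these markers in the changes of ER genes was not tested.

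With 15d-PGJ2, 26 of the 40 ER genes fell and 0 rose against control by limma at an adjusted p under 0.05, where 25.0% of all tested genes fell, 22.2% rose and 47.2% changed in either direction. At an unadjusted p under 0.05, 27 were lower and 1 was higher. The median log2 fold change of the 40 was -0.25, beside -0.02 over all tested genes. In 29 of the 40 genes all 15d-PGJ2 libraries lay below all controls, where 28.8% of tested genes did, and in 2 they lay above, where 26.3% did. With 15d-PGJ2-PC, 13 fell and 1 rose against the same controls, where 14.1% of tested genes fell, 13.8% rose and 27.8% changed in either direction, with a median of -0.08 (-0.00 over all tested genes). All 15d-PGJ2-PC libraries lay below all controls in 18 genes, where 21.3% of tested genes did, and above them in 3, where 20.5% did. The summed level of the 40 genes was 2628 to 2702 FPKM with 15d-PGJ2, 3052 to 3092 FPKM with 15d-PGJ2-PC and 3385 to 3434 FPKM in controls. These sums were 0.535% to 0.548% of all FPKM with 15d-PGJ2, 0.631% to 0.637% with 15d-PGJ2-PC and 0.704% to 0.725% in controls, and the groups did not overlap. The lowest of the 40 in controls was Pdia5 and the highest Calr, whose level of 404 ± 10.9 FPKM was within 1 SD of that of Hspa5 at 399 ± 6.85 (SD, n = 3).

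**Figure D1:**
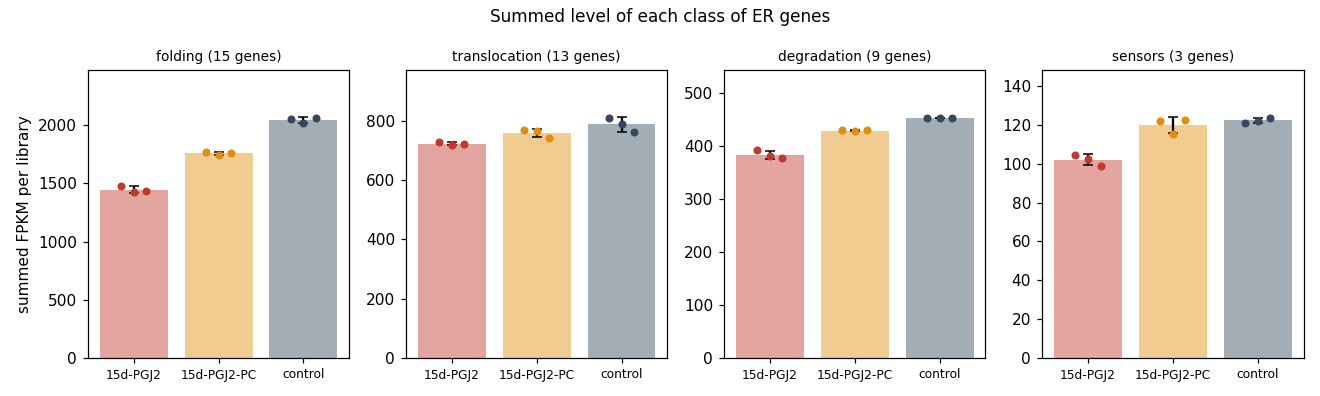
Summed FPKM of each class of ER genes in each library (points), with group means (bars) and SD (error bars) over 3 libraries. Folding genes summed to 1427 to 1477 FPKM with 15d-PGJ2, 1743 to 1772 with 15d-PGJ2-PC and 2019 to 2065 in controls, with no overlap between groups.

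Folding genes fell most often: 13 of 15 fell with 15d-PGJ2 and 9 with 15d-PGJ2-PC, with median log2 fold changes of -0.52 and -0.18. Over all tested genes 25.0% fell with 15d-PGJ2 and 14.1% with 15d-PGJ2-PC. Among the abundant chaperones, Hspa5 stood at 239, 231 and 233 FPKM in the 15d-PGJ2 libraries, at 349.8, 345 and 361 in the 15d-PGJ2-PC libraries and at 391, 399 and 405 in the controls. It encodes BiP, the Hsp70 of the ER lumen, lies at chr2:34772090-34776529, and carries the ERSE shown above. No library of one group overlapped another, and the log2 fold change was -0.76 (SE 0.03, adjusted p = 1.24e-08) with 15d-PGJ2 and -0.18 (SE 0.03, adjusted p = 0.00122) with 15d-PGJ2-PC. With quantile normalization the 15d-PGJ2-PC change was -0.09 (adjusted p = 0.0789, range 9.98e-04 to 0.0789 over the alternatives). Calr stood at 258, 235 and 239 FPKM in the 15d-PGJ2 libraries, at 317, 313 and 306 in the 15d-PGJ2-PC libraries and at 399, 396 and 416 in the controls. Calr encodes calreticulin, a soluble lectin chaperone that also buffers calcium (chr8:84842088-84846931), and its groups were fully separate as well. It changed by -0.72 (SE 0.04, adjusted p = 1.00e-07) with 15d-PGJ2 and by -0.37 (SE 0.04, adjusted p = 5.03e-05) with 15d-PGJ2-PC. Its membrane-bound relative calnexin went the other way in value without passing: Canx averaged 125 ± 1.10 FPKM with 15d-PGJ2, 123 ± 4.23 with 15d-PGJ2-PC and 119 ± 3.96 in controls (SD, n = 3 each), with adjusted p = 0.174 for 15d-PGJ2 and 0.377 for 15d-PGJ2-PC. Canx has an ERSE in its promoter too. The ER Hsp90 gene Hsp90b1 (GRP94) averaged 175 ± 3.34 FPKM with 15d-PGJ2, 194 ± 4.53 with 15d-PGJ2-PC and 213 ± 15.0 in controls, a change of -0.28 (SE 0.05, adjusted p = 5.60e-04) with 15d-PGJ2 and -0.13 (SE 0.05, adjusted p = 0.0631) with 15d-PGJ2-PC. Exons of Hsp90b1 overlap a pseudogene on the opposite strand over 415 bases, and whether counting used strand is not given in the sources used here.

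Among protein disulfide isomerases, which form and reshuffle disulfide bonds, Pdia4 and Pdia6 changed most. Pdia4 stood at 31.6, 30.7 and 31.8 FPKM in the 15d-PGJ2 libraries, at 44.0, 46.4 and 47.7 in the 15d-PGJ2-PC libraries and at 61.6, 58.9 and 60.2 in the controls. Every 15d-PGJ2 library lay below every 15d-PGJ2-PC library, and these lay below every control, with changes of -0.92 (SE 0.04, adjusted p = 4.37e-08) and -0.38 (SE 0.04, adjusted p = 8.92e-05) against control. Pdia6 stood at 82.4, 84.2 and 83.4 FPKM in the 15d-PGJ2 libraries, at 103, 103 and 103 in the 15d-PGJ2-PC libraries and at 136, 129 and 133 in the controls. The order of groups was the same without overlap, and the changes were -0.66 (SE 0.03, adjusted p = 5.13e-08) with 15d-PGJ2 and -0.36 (SE 0.03, adjusted p = 1.77e-05) with 15d-PGJ2-PC. Txndc5, another thioredoxin-domain isomerase, averaged 27.2 ± 1.31 FPKM with 15d-PGJ2, 31.2 ± 0.327 with 15d-PGJ2-PC and 39.4 ± 2.89 in controls and changed by -0.52 and -0.33. The abundant isomerases moved less: Pdia3, the partner of calnexin and calreticulin, averaged 157 ± 1.90 FPKM with 15d-PGJ2, 169 ± 4.97 with 15d-PGJ2-PC and 186 ± 3.35 in controls, and P4hb, which encodes PDI itself, averaged 133 ± 4.47 FPKM with 15d-PGJ2, 141 ± 6.56 with 15d-PGJ2-PC and 159 ± 5.78 in controls. Pdia3 changed by -0.24 and -0.14, and P4hb by -0.26 and -0.18, each passing in both comparisons. Without the intensity trend the 15d-PGJ2-PC change of Pdia3 had adjusted p = 0.0623 (range 0.00375 to 0.0623). Pdia5, with as few as 17.6 reads in a library, averaged 2.73 ± 0.871 FPKM with 15d-PGJ2, 3.08 ± 0.824 with 15d-PGJ2-PC and 2.86 ± 0.607 in controls and passed in neither (adjusted p = 0.817 and 0.834).

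Co-factors of BiP and small secreted ER proteins were lower with 15d-PGJ2 as well. Sdf2l1 encodes an ER protein that works with BiP and its J-domain partners, and stood at 33.0, 36.1 and 33.4 FPKM with 15d-PGJ2, 49.6, 46.1 and 50.6 FPKM with 15d-PGJ2-PC and 66.8, 78.3 and 66.3 FPKM in controls. Every 15d-PGJ2 library lay below every other library, and the change of -1.02 (SE 0.07, adjusted p = 5.64e-07) was the largest of the folding class in this comparison. With 15d-PGJ2-PC Sdf2l1 changed by -0.52 (SE 0.07, adjusted p = 2.35e-04), with all libraries below the controls. Manf stood at 25.7, 22.5 and 23.6 FPKM in the 15d-PGJ2 libraries, at 34.7, 33.5 and 34.7 in the 15d-PGJ2-PC libraries and at 48.9, 46.9 and 47.4 in the controls. MANF is a stress-induced secreted factor that binds BiP; its groups did not overlap, and it changed by -0.97 (SE 0.05, adjusted p = 1.22e-07) with 15d-PGJ2 and by -0.47 (SE 0.05, adjusted p = 8.99e-05) with 15d-PGJ2-PC. Hyou1 stood at 23.6, 22.7 and 22.2 FPKM in the 15d-PGJ2 libraries, at 34.7, 34.3 and 35.6 in the 15d-PGJ2-PC libraries and at 36.6, 38.9 and 35.7 in the controls. Hyou1 encodes the large Hsp70-related exchange factor of BiP (GRP170); only the 15d-PGJ2 libraries stood well apart, at -0.67 (SE 0.05, adjusted p = 9.96e-07), while the 15d-PGJ2-PC libraries lay just below the controls at -0.08 (SE 0.05, adjusted p = 0.246). Creld2, a secreted stress-induced isomerase-like gene with an ERSE, stood at 15.9, 15.0 and 17.2 FPKM with 15d-PGJ2, 25.1, 21.5 and 22.5 FPKM with 15d-PGJ2-PC and 23.7, 22.8 and 22.2 FPKM in controls, which gave -0.49 (SE 0.07, adjusted p = 1.91e-04) and 0.01 (SE 0.07, adjusted p = 0.945). Its 15d-PGJ2-PC and control libraries overlapped and its 15d-PGJ2 libraries were the lowest. Ppib, which encodes the ER proline isomerase cyclophilin B, averaged 137 ± 6.50 FPKM with 15d-PGJ2, 142 ± 4.89 with 15d-PGJ2-PC and 151 ± 8.74 in controls and changed by -0.14 (SE 0.05, adjusted p = 0.0442) with 15d-PGJ2. That call was lost without 15d-PGJ2 replicate 2 (0.160), 15d-PGJ2 replicate 3 (0.0587), 15d-PGJ2-PC replicate 1 (0.0576), 15d-PGJ2-PC replicate 3 (0.0522) or control replicate 1 (0.162), with a range of 0.0154 to 0.162 over the alternatives. Quantile normalization (0.0927), median-ratio scaling (0.0796), no filter (0.0730), no intensity trend (0.104) and the 6 libraries of the comparison alone (0.0653) ended it too. Exons of Ppib overlap those of Snx22 on the other strand over 825 bases, and without strand their reads cannot be told apart.

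**Figure D2:**
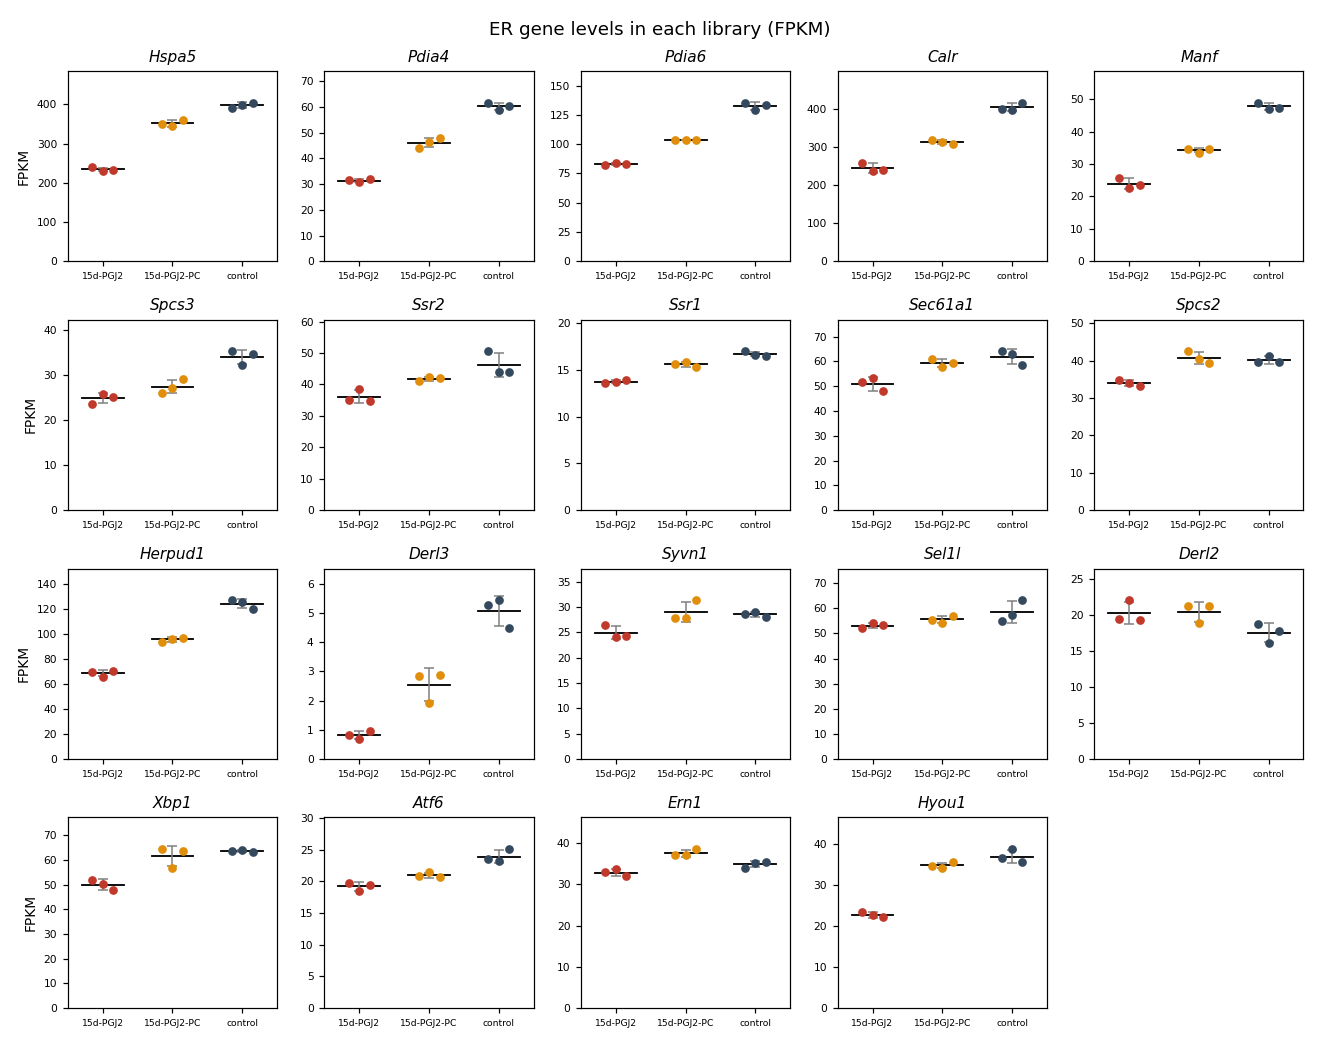
FPKM of 19 ER genes in each library (points), with the mean (black line) and SD (grey bars) of 3 libraries per group; axes start at 0. Hspa5, Pdia4, Pdia6, Calr, Manf, Herpud1 and Derl3 show 15d-PGJ2 libraries lowest, 15d-PGJ2-PC libraries between and controls highest, without overlap, and Hyou1, Xbp1 and Spcs2 show 15d-PGJ2 libraries apart from both other groups.

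Of the translocation and signal peptide genes, 8 of 13 fell with 15d-PGJ2 (median -0.22) and 1 with 15d-PGJ2-PC (median -0.06). With quantile normalization 5 fell with 15d-PGJ2. Over all tested genes 25.0% fell with 15d-PGJ2 and 14.1% with 15d-PGJ2-PC, so the count with 15d-PGJ2-PC is not above the background. Of the channel subunits, Sec61a1 stood at 51.7, 53.4 and 48.0 FPKM in the 15d-PGJ2 libraries, at 61.0, 57.8 and 59.5 in the 15d-PGJ2-PC libraries and at 64.1, 63.0 and 58.5 in the controls. Sec61a1 encodes the pore-forming subunit; its 15d-PGJ2 libraries lay below all others and it changed by -0.27 (SE 0.05, adjusted p = 0.00139), while 15d-PGJ2-PC and control libraries overlapped at -0.06 (SE 0.05, adjusted p = 0.479). The small subunit genes Sec61b and Sec61g changed by -0.25 (SE 0.07, adjusted p = 0.0158) and -0.21 (SE 0.08, adjusted p = 0.0385) with 15d-PGJ2. The Sec61b call was lost without 15d-PGJ2 replicate 2 (0.0622) or control replicate 1 (0.0562), with a range of 0.00320 to 0.0622 over the alternatives. The Sec61g call was lost without 15d-PGJ2 replicate 1 (0.130), 15d-PGJ2 replicate 2 (0.0737), 15d-PGJ2-PC replicate 2 (0.0511), control replicate 1 (0.116) or control replicate 2 (0.0932), with a range of 0.0179 to 0.164 over the alternatives. Quantile normalization ended both (0.0518 and 0.164). Median-ratio scaling (0.0523), no filter (0.0722) and no intensity trend (0.0730) also ended the Sec61g call.

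The translocon-associated protein (TRAP) complex, which helps some signal sequences open the channel, is encoded by Ssr1 to Ssr4. Ssr1 stood at 13.6, 13.7 and 13.9 FPKM in the 15d-PGJ2 libraries, at 15.7, 15.8 and 15.2 in the 15d-PGJ2-PC libraries and at 17.0, 16.6 and 16.5 in the controls. Ssr2 stood at 35.0, 38.4 and 34.8 FPKM in the 15d-PGJ2 libraries, at 41.1, 42.3 and 42.1 in the 15d-PGJ2-PC libraries and at 50.5, 44.1 and 43.9 in the controls. In both genes the 15d-PGJ2 libraries were the lowest, the 15d-PGJ2-PC libraries were between and the controls the highest, with changes of -0.27 (SE 0.05, adjusted p = 0.00134) and -0.35 (SE 0.06, adjusted p = 9.08e-04) for 15d-PGJ2, and -0.10 (SE 0.05, adjusted p = 0.201) and -0.14 (SE 0.06, adjusted p = 0.133) for 15d-PGJ2-PC. Ssr3 averaged 65.3 ± 3.79 FPKM with 15d-PGJ2, 74.7 ± 2.64 with 15d-PGJ2-PC and 76.5 ± 6.61 in controls and changed by -0.22 (SE 0.06, adjusted p = 0.0152) with 15d-PGJ2. That call was lost without 15d-PGJ2 replicate 1 (0.0572) or with quantile normalization (0.0675), with a range of 0.00661 to 0.0675 over the alternatives. Ssr4 averaged 94.0 ± 0.290 FPKM with 15d-PGJ2, 96.0 ± 6.94 with 15d-PGJ2-PC and 101 ± 6.36 in controls and did not pass (adjusted p = 0.175 with 15d-PGJ2).

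Signal peptidase, which cuts the signal peptide inside the ER, has catalytic and accessory subunits. Spcs3 stood at 23.6, 25.8 and 25.2 FPKM in the 15d-PGJ2 libraries, at 26.1, 27.2 and 29.1 in the 15d-PGJ2-PC libraries and at 35.3, 32.4 and 34.8 in the controls. Spcs3, an accessory subunit needed for cleavage, was the 1 gene of the class that fell with both compounds, with changes of -0.44 (SE 0.06, adjusted p = 1.14e-04) and -0.30 (SE 0.06, adjusted p = 0.00302), and no treated library reached a control. Spcs2 stood at 34.8, 34.1 and 33.1 FPKM in the 15d-PGJ2 libraries, at 42.5, 40.5 and 39.4 in the 15d-PGJ2-PC libraries and at 39.6, 41.4 and 39.7 in the controls. This accessory subunit changed by -0.24 (SE 0.05, adjusted p = 0.00153) with 15d-PGJ2 and by 0.02 (SE 0.05, adjusted p = 0.813) with 15d-PGJ2-PC, where libraries overlapped the controls. The catalytic subunit genes did not pass: Sec11a averaged 46.7 ± 2.45 FPKM with 15d-PGJ2, 45.6 ± 2.39 with 15d-PGJ2-PC and 45.4 ± 4.75 in controls and Sec11c 53.7 ± 8.21 FPKM with 15d-PGJ2, 53.1 ± 3.54 with 15d-PGJ2-PC and 46.8 ± 5.19 in controls, with adjusted p = 0.655 and 0.165 for 15d-PGJ2. Neither did Spcs1 (adjusted p = 0.844) or Srp14, a signal recognition particle subunit, at 113 ± 2.31 FPKM with 15d-PGJ2, 105 ± 3.27 with 15d-PGJ2-PC and 103 ± 10.4 in controls (adjusted p = 0.123). Srp14 would have been called as higher without control replicate 2 (0.0289), with a range of 0.0289 to 0.415 over the alternatives.

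In ER-associated degradation 3 of 9 genes fell with 15d-PGJ2, Herpud1, Derl3 and Syvn1, and 2 fell and 1 rose with 15d-PGJ2-PC; these counts are small enough that the genes are named after their values were seen where the rule does not take them. Over all tested genes 25.0% fell with 15d-PGJ2, and 14.1% fell and 13.8% rose with 15d-PGJ2-PC, so with 9 genes these counts lie near the background. Herpud1 stood at 69.5, 65.7 and 70.5 FPKM in the 15d-PGJ2 libraries, at 93.4, 96.2 and 96.9 in the 15d-PGJ2-PC libraries and at 127, 125 and 120.1 in the controls. Herpud1 is a membrane adaptor of the retrotranslocation complex with the ERSE-II shown above (chr8:94386429-94395371); its groups did not overlap and it changed by -0.85 (SE 0.04, adjusted p = 3.92e-08) and -0.37 (SE 0.04, adjusted p = 5.37e-05). Derl3 stood at 0.820, 0.690 and 0.960 FPKM in the 15d-PGJ2 libraries, at 2.86, 1.91 and 2.88 in the 15d-PGJ2-PC libraries and at 5.27, 5.44 and 4.50 in the controls. Derl3 encodes a derlin, a rhomboid-like membrane protein of retrotranslocation, and its 3 groups were separate although it rests on few reads, about 36.3 in a control library and 4.95 in the lowest 15d-PGJ2 library. It changed by -1.73 (SE 0.14, adjusted p = 2.24e-06) and -0.78 (SE 0.14, adjusted p = 0.00172), and the plain ratio of mean FPKM was 0.16 for 15d-PGJ2 and 0.50 for 15d-PGJ2-PC; the log2 scale of FPKM + 1 understates a gene this low. The other derlin genes did not pass: Derl1 averaged 87.1 ± 2.93 FPKM with 15d-PGJ2, 93.2 ± 3.38 with 15d-PGJ2-PC and 88.9 ± 1.61 in controls (adjusted p = 0.573 for 15d-PGJ2). Derl2 stood at 19.4, 22.1 and 19.4 FPKM in the 15d-PGJ2 libraries, at 21.3, 18.9 and 21.2 in the 15d-PGJ2-PC libraries and at 18.8, 16.2 and 17.9 in the controls. For Derl2 all treated libraries lay above the controls, at 0.20 (SE 0.08, adjusted p = 0.0581) and 0.21 (SE 0.08, adjusted p = 0.0710), short of the threshold; it passed as higher without control replicate 1 (0.0439), with a range of 0.0417 to 0.201 over the alternatives for 15d-PGJ2, and without 15d-PGJ2-PC replicate 2 (0.0451), with a range of 0.0451 to 0.225 over the alternatives for 15d-PGJ2-PC. Derl2 exons overlap those of Mis12 on the other strand over 231 bases. Exons of other ER genes overlap opposite-strand genes over 549 bases (Sec61a1), 311 and 224 bases (Txndc5), 252 bases (Spcs1), 239 bases (Ssr2), 216 bases (Sec11a), 166 and 146 bases (Manf), and 18 to 91 bases (Pdia3, Pdia6, Spcs3 and Syvn1). Same-strand exons of other genes overlap Sec11a over 163 bases (Nmb), Hsp90b1 over 133 and 84 bases, and Manf and Pdia4 over 14 bases each. Counting by strand would not separate these.

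The ubiquitin ligase of this pathway, HRD1, and its adaptor are encoded by Syvn1 and Sel1l. Syvn1 stood at 26.4, 24.1 and 24.4 FPKM in the 15d-PGJ2 libraries, at 27.8, 27.9 and 31.4 in the 15d-PGJ2-PC libraries and at 28.7, 29.0 and 28.1 in the controls. Syvn1 has an ERSE near its start; its 15d-PGJ2 libraries lay below all others, and the change was -0.19 (SE 0.06, adjusted p = 0.0227). That call was lost without 15d-PGJ2 replicate 2 (0.0769), 15d-PGJ2 replicate 3 (0.0694), control replicate 1 (0.0572) or control replicate 2 (0.0654), with a range of 0.0133 to 0.0769 over the alternatives. Quantile normalization ended it too (0.0528). Sel1l stood at 52.2, 54.1 and 53.2 FPKM in the 15d-PGJ2 libraries, at 55.5, 54.2 and 57.0 in the 15d-PGJ2-PC libraries and at 54.9, 57.5 and 63.2 in the controls. Sel1l did not pass at -0.13 (SE 0.05, adjusted p = 0.0559), with 15d-PGJ2 libraries just below the controls; it passed as lower without control replicate 1 (0.0212), with a range of 0.0212 to 0.377 over the alternatives. The mannose-trimming gene Edem1, which marks glycoproteins for disposal, averaged 36.6 ± 1.92 FPKM with 15d-PGJ2, 39.7 ± 1.32 with 15d-PGJ2-PC and 35.3 ± 1.04 in controls, and was the 1 ER gene that rose with 15d-PGJ2-PC, at 0.16 (SE 0.05, adjusted p = 0.0372). That call was lost without 15d-PGJ2 replicate 2 (0.0503), 15d-PGJ2-PC replicate 1 (0.104), 15d-PGJ2-PC replicate 2 (0.112), control replicate 1 (0.116) or control replicate 2 (0.0883), with a range of 0.0278 to 0.116 over the alternatives, and also without the intensity trend (0.0675). Edem2 averaged 30.2 ± 4.44 FPKM with 15d-PGJ2, 29.2 ± 1.29 with 15d-PGJ2-PC and 29.1 ± 2.04 in controls and the lectin gene Os9 61.4 ± 2.35 FPKM with 15d-PGJ2, 63.5 ± 1.67 with 15d-PGJ2-PC and 65.3 ± 2.33 in controls, with adjusted p = 0.740 and 0.129 for 15d-PGJ2.

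Of the sensors, Xbp1 and Atf6 fell with 15d-PGJ2 and Ern1 did not pass. Xbp1 stood at 52.0, 50.4 and 47.7 FPKM in the 15d-PGJ2 libraries, at 64.4, 56.8 and 63.5 in the 15d-PGJ2-PC libraries and at 63.5, 63.9 and 63.3 in the controls. Xbp1 is the transcription factor that IRE1 activates by splicing its RNA, which gene-level FPKM cannot show; 15d-PGJ2 libraries lay below all others, at -0.34 (SE 0.05, adjusted p = 3.55e-04), and 15d-PGJ2-PC libraries overlapped the controls at -0.05 (SE 0.05, adjusted p = 0.561). Atf6 stood at 19.8, 18.5 and 19.4 FPKM in the 15d-PGJ2 libraries, at 20.8, 21.4 and 20.7 in the 15d-PGJ2-PC libraries and at 23.5, 23.2 and 25.1 in the controls. Atf6 encodes the membrane-tethered factor that is cut in the Golgi under stress; no treated library reached a control, at -0.30 (SE 0.05, adjusted p = 8.23e-04) and -0.18 (SE 0.05, adjusted p = 0.0266). The Atf6 call with 15d-PGJ2-PC was lost without 15d-PGJ2-PC replicate 1 (0.0724), 15d-PGJ2-PC replicate 3 (0.0771), control replicate 1 (0.0504) or control replicate 3 (0.0926), with a range of 0.0205 to 0.0926 over the alternatives. Ern1 stood at 33.0, 33.7 and 31.9 FPKM in the 15d-PGJ2 libraries, at 37.0, 37.0 and 38.5 in the 15d-PGJ2-PC libraries and at 34.0, 35.2 and 35.4 in the controls. Ern1 encodes IRE1α, and against control it stood at -0.08 (SE 0.04, adjusted p = 0.150) with 15d-PGJ2 and 0.10 (SE 0.04, adjusted p = 0.106) with 15d-PGJ2-PC, which did not pass, although all 15d-PGJ2 libraries lay below and all 15d-PGJ2-PC libraries above the controls.

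**Figure D3:**
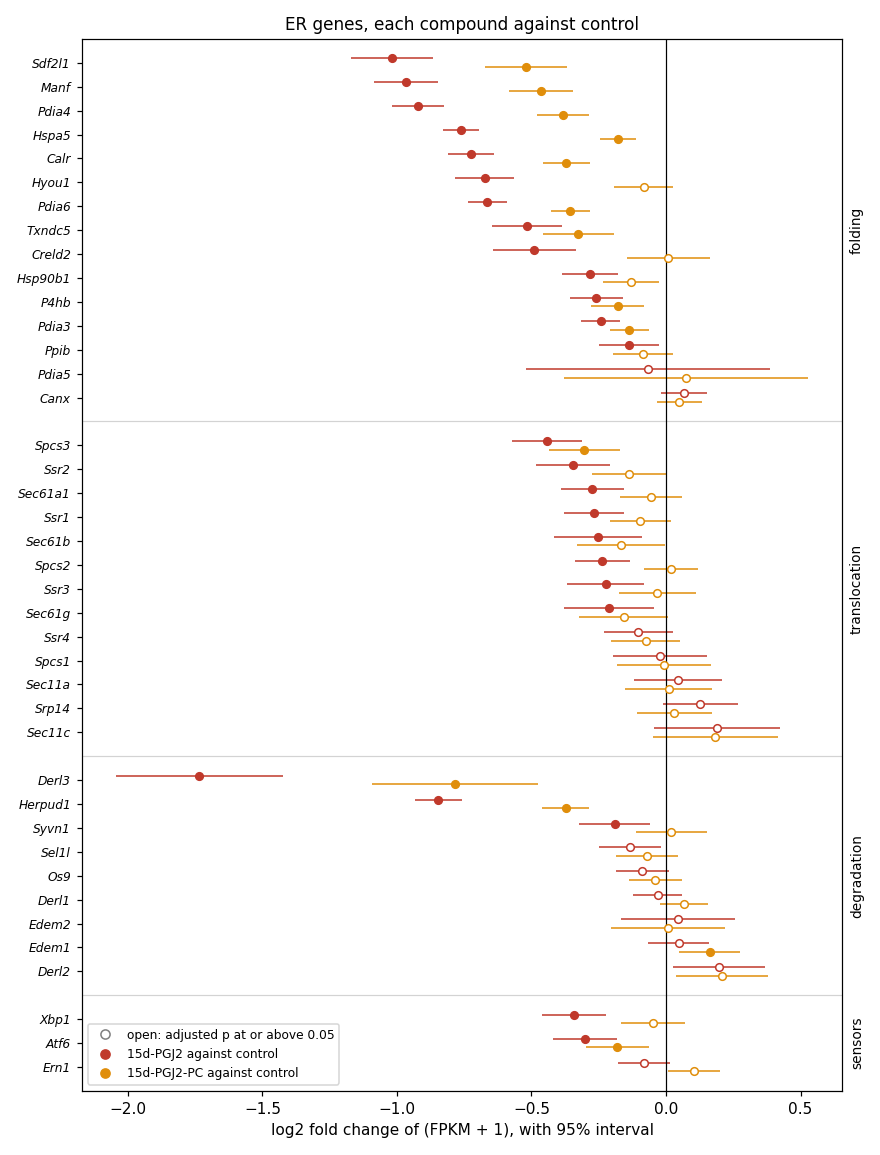
Log2 fold change of FPKM + 1 against control for the 40 ER genes by class (points) with 95% intervals (bars); 15d-PGJ2 in red, 15d-PGJ2-PC in orange, filled where adjusted p was under 0.05. For 15d-PGJ2 the values run from -1.73 (Derl3) to 0.20 (Derl2), and for 15d-PGJ2-PC from -0.78 to 0.21.

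The compounds were then compared directly, as 1 pair at the same 1 µM and 6 h. No control library enters the difference itself. Controls do enter the filter and the variance behind its p-value, which was fitted on all 9 libraries. In 15d-PGJ2-PC libraries 20 of the 40 ER genes were higher and 0 were lower than in 15d-PGJ2 libraries by limma, where 12.3% of all tested genes were higher, 8.30% lower and 20.6% either. At an unadjusted p under 0.05, 25 were higher and 0 lower. The median log2 difference was 0.15, beside 0.02 over all tested genes, and in 24 genes all 15d-PGJ2-PC libraries lay above all 15d-PGJ2 libraries, where 20.5% of tested genes did. In 1 gene, Srp14, they lay below, where 16.7% did. Of the classes, 11 of 15 folding, 4 of 13 translocation, 3 of 9 degradation and 2 of 3 sensor genes were higher. Without 15d-PGJ2 replicate 3 the count was 12, the lowest over the alternatives, and the highest was 21. Of the macrophage markers 9 of 9 were higher in 15d-PGJ2-PC libraries too, and their part in these differences was not tested.

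The largest differences were those of Derl3, Hyou1, Hspa5, Pdia4 and Manf. Derl3 differed by 0.95 (SE 0.14, adjusted p = 7.42e-04), with a ratio of mean FPKM of 3.10. Hyou1 differed by 0.59 (SE 0.05, adjusted p = 1.99e-05), Hspa5 by 0.58 (SE 0.03, adjusted p = 1.89e-06), Pdia4 by 0.54 (SE 0.04, adjusted p = 1.80e-05) and Manf by 0.50 (SE 0.05, adjusted p = 9.00e-05), and in each all libraries of 15d-PGJ2-PC lay above those of 15d-PGJ2. Sdf2l1, Creld2 and Herpud1 followed at 0.50, 0.50 and 0.47, and Calr and Pdia6 at 0.35 and 0.31. Xbp1 differed by 0.29 (SE 0.05, adjusted p = 0.00289) and Spcs2 by 0.25 (SE 0.05, adjusted p = 0.00274). These 12 genes kept their call under every alternative that tested them, and the 8 other called genes did not.

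Those 8 were Hsp90b1, Pdia3, Txndc5, Sec61a1, Ssr1, Ssr2, Syvn1 and Ern1. Hsp90b1 was called at 0.0441 and lost without 15d-PGJ2 replicate 1 (0.0953), 15d-PGJ2 replicate 2 (0.0705), 15d-PGJ2 replicate 3 (0.125), 15d-PGJ2-PC replicate 1 (0.060), 15d-PGJ2-PC replicate 2 (0.126), 15d-PGJ2-PC replicate 3 (0.109) or control replicate 1 (0.0558), with a range of 0.00724 to 0.126 over the alternatives. Pdia3 was called at 0.0431 and lost without 15d-PGJ2 replicate 1 (0.0614), 15d-PGJ2 replicate 2 (0.123), 15d-PGJ2 replicate 3 (0.111), 15d-PGJ2-PC replicate 1 (0.154), 15d-PGJ2-PC replicate 2 (0.0977), control replicate 1 (0.0580) or control replicate 2 (0.0579), with a range of 0.0367 to 0.154 over the alternatives. Txndc5 was called at 0.0436 and lost without 15d-PGJ2 replicate 1 (0.0620), 15d-PGJ2 replicate 2 (0.149), 15d-PGJ2 replicate 3 (0.0652), 15d-PGJ2-PC replicate 1 (0.112), 15d-PGJ2-PC replicate 2 (0.0977), 15d-PGJ2-PC replicate 3 (0.0843) or control replicate 2 (0.0570), with a range of 0.0241 to 0.149 over the alternatives. These are the ER Hsp90 and a pair of isomerases. Sec61a1, the channel pore, was called at 0.0132 and lost without 15d-PGJ2 replicate 3 (0.0531) or 15d-PGJ2-PC replicate 1 (0.0510), with a range of 0.00936 to 0.0531 over the alternatives. Ssr1 was called at 0.0352 and lost without 15d-PGJ2 replicate 1 (0.0843), 15d-PGJ2 replicate 2 (0.0882), 15d-PGJ2 replicate 3 (0.0723), 15d-PGJ2-PC replicate 1 (0.0941), 15d-PGJ2-PC replicate 2 (0.103), 15d-PGJ2-PC replicate 3 (0.0589) or control replicate 2 (0.0530), with a range of 0.0214 to 0.103 over the alternatives. Ssr2 was called at 0.0362 and lost without 15d-PGJ2 replicate 1 (0.10), 15d-PGJ2 replicate 3 (0.115), 15d-PGJ2-PC replicate 1 (0.0680), 15d-PGJ2-PC replicate 2 (0.0973) or 15d-PGJ2-PC replicate 3 (0.0876), with a range of 0.0157 to 0.115 over the alternatives. Ssr1 and Ssr2 encode subunits of the TRAP complex. Syvn1 was called at 0.0304 and lost without 15d-PGJ2 replicate 2 (0.102), 15d-PGJ2 replicate 3 (0.0932) or 15d-PGJ2-PC replicate 3 (0.101), with a range of 0.0224 to 0.102 over the alternatives. Ern1 was called at 0.0119 and lost without 15d-PGJ2 replicate 3 (0.0508), with a range of 0.00895 to 0.0508 over the alternatives. Among these genes, quantile normalization ended the calls of Hsp90b1, Txndc5, Ssr1, Ssr2 and Syvn1, median-ratio scaling those of Hsp90b1, Pdia3, Txndc5, Ssr1 and Ssr2, and a fit without the intensity trend those of Hsp90b1, Pdia3, Txndc5, Ssr2 and Syvn1. Without the filter Hsp90b1, Txndc5 and Ssr2 were lost, and with the 6 libraries of the comparison alone Pdia3, Ssr1 and Syvn1. Their differences were 0.11 (Pdia3) to 0.22 (Sec61a1) on the log2 scale, and stayed positive under every alternative tried.

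For genes that did not pass, the 95% interval of the difference bounds what these libraries allow. It was -0.10 to 0.07 for Canx, -0.06 to 0.17 for Ppib and -0.02 to 0.18 for P4hb, and -0.31 to 0.59 for the low Pdia5. Among translocation genes it was -0.20 to 0.13 for Sec11a, -0.24 to 0.23 for Sec11c, -0.16 to 0.19 for Spcs1, -0.24 to 0.04 for Srp14 and -0.10 to 0.16 for Ssr4. For Sec61b and Sec61g it was -0.08 to 0.25 and -0.11 to 0.22, and for Spcs3 and Ssr3 0.01 to 0.27 and 0.05 to 0.33. Ssr3 passed without control replicate 2 (0.0451) or control replicate 3 (0.0264), with a range of 0.0264 to 0.178 over the alternatives. In degradation it was 0.01 to 0.19 for Derl1, -0.16 to 0.18 for Derl2, 0.00 to 0.23 for Edem1, -0.25 to 0.17 for Edem2, -0.05 to 0.15 for Os9 and -0.05 to 0.18 for Sel1l. For Atf6 it was 0.00 to 0.24. The unadjusted p was under 0.05 for Spcs3, Ssr3, Derl1, Edem1 and Atf6, whose adjusted p ran from 0.0621 to 0.149.

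**Figure D4:**
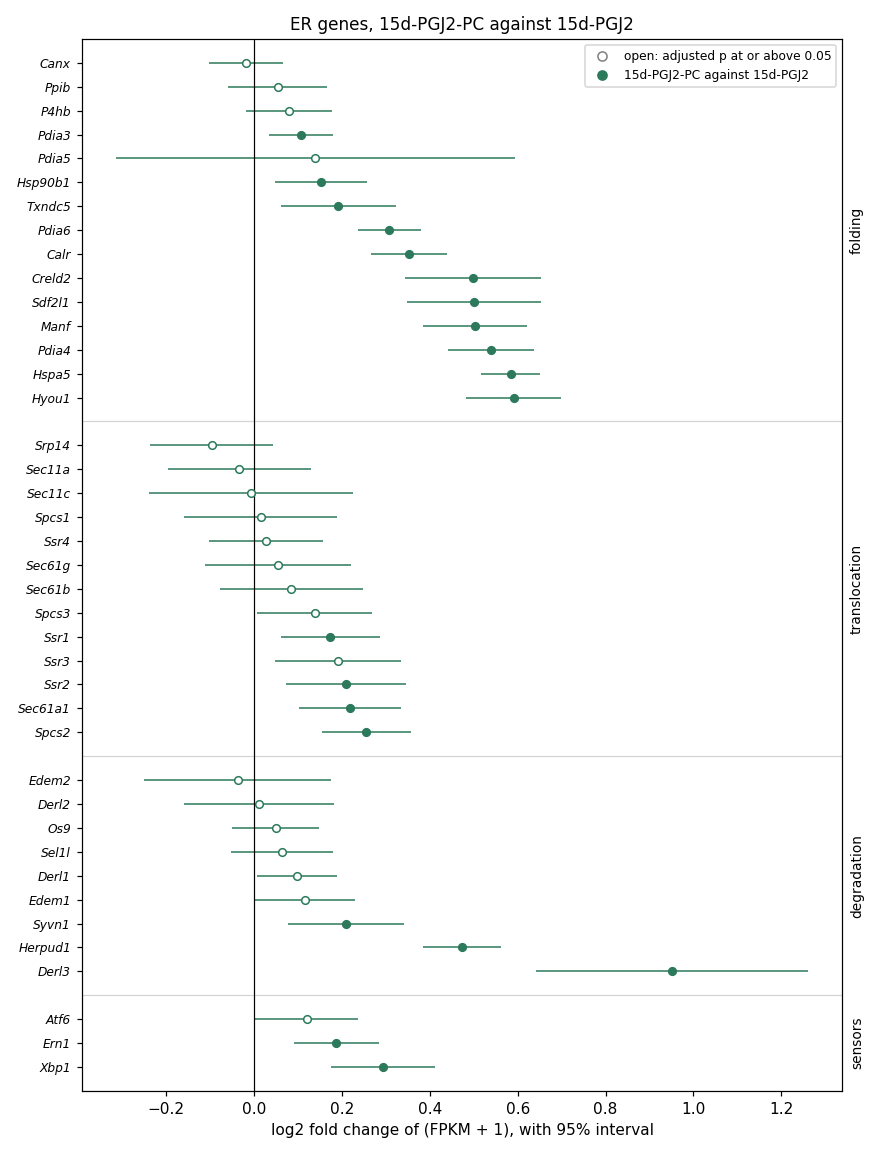
Log2 difference of FPKM + 1 between 15d-PGJ2-PC and 15d-PGJ2 libraries for the 40 ER genes (points) with 95% intervals (bars), filled where adjusted p was under 0.05. All 20 filled points lie above 0, from 0.11 (Pdia3) to 0.95 (Derl3).

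Genes with an ERSE in the matched promoter window were then set beside the 24 ER genes with a promoter and no ERSE. ER genes without a matched promoter are in neither set, and the 24 include Herpud1, which carries an ERSE-II. Of the 8 such ER genes 7 fell with 15d-PGJ2 and 4 with 15d-PGJ2-PC against control, and 7 were higher in 15d-PGJ2-PC than in 15d-PGJ2 libraries; Canx was the exception in the first and the last count. Their median log2 fold change was -0.58 with 15d-PGJ2 and -0.16 with 15d-PGJ2-PC. Of the 24 without an ERSE, 13 fell with 15d-PGJ2 (median -0.18), 6 fell and 1 rose with 15d-PGJ2-PC (median -0.06), and 9 were higher in 15d-PGJ2-PC than in 15d-PGJ2 libraries. Over all tested genes 25.0% fell with 15d-PGJ2, 14.1% fell with 15d-PGJ2-PC and 12.3% were higher in 15d-PGJ2-PC than in 15d-PGJ2 libraries. The difference between ER genes with and without an ERSE was not tested. Of 7 other tested genes with an ERSE, 2 fell with 15d-PGJ2, the co-chaperone gene Dnajc3 and Adcy3, the second named after its value was seen. The 7 had a median of -0.14, and their share that fell was near the 25.0% of all tested genes. No exact ERSE match was found for Pdia4 and Sdf2l1, which changed by -0.92 and -1.02 with 15d-PGJ2. Near copies of the element were not searched for, in these or the other genes.

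Other genes of the ER and its stress response were listed by function. Of 89 tested, 31 fell and 23 rose with 15d-PGJ2 (median -0.06) and 7 fell and 19 rose with 15d-PGJ2-PC (median -0.03). Over all tested genes 25.0% fell and 22.2% rose with 15d-PGJ2, and 14.1% fell and 13.8% rose with 15d-PGJ2-PC, so the total that rose with 15d-PGJ2 was near the background; the counts of the single lists below are to be read against the same shares. In the PERK arm, 5 of 9 genes rose and 1 fell with 15d-PGJ2, and 5 rose and 0 fell with 15d-PGJ2-PC. Ppp1r15a, which encodes the phosphatase subunit GADD34, averaged 52.0 ± 3.78 FPKM with 15d-PGJ2, 44.0 ± 1.85 with 15d-PGJ2-PC and 18.8 ± 1.04 in controls. Atf4, the transcription factor of this arm, averaged 259.7 ± 7.96 FPKM with 15d-PGJ2, 272 ± 4.83 with 15d-PGJ2-PC and 190.1 ± 5.27 in controls, and its target Trib3 72.6 ± 6.25 FPKM with 15d-PGJ2, 71.1 ± 1.88 with 15d-PGJ2-PC and 41.5 ± 2.41 in controls. All 3 rose with both compounds, Atf4 by 0.45 and 0.52.

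Of 19 other tested genes of ER-associated degradation 11 rose and 3 fell with 15d-PGJ2 (median 0.25), and 10 rose and 1 fell with 15d-PGJ2-PC (median 0.14). Vcp, the ATPase that pulls substrates from the membrane, averaged 297 ± 5.37 FPKM with 15d-PGJ2, 263 ± 4.94 with 15d-PGJ2-PC and 181 ± 8.04 in controls, its adaptor gene Nploc4 59.0 ± 1.46 FPKM with 15d-PGJ2, 51.8 ± 1.78 with 15d-PGJ2-PC and 26.1 ± 0.309 in controls, and Ubxn4, an ER-anchored partner of VCP, 73.5 ± 4.16 FPKM with 15d-PGJ2, 54.1 ± 1.07 with 15d-PGJ2-PC and 25.0 ± 1.30 in controls. They changed by 0.71, 1.15 and 1.52 with 15d-PGJ2 and by 0.54, 0.96 and 1.08 with 15d-PGJ2-PC, and each was lower in 15d-PGJ2-PC than in 15d-PGJ2 libraries (adjusted p = 0.00662, 0.0105 and 2.25e-04). In that direct comparison 6 of the 19 were lower and 0 higher, by limma, in 15d-PGJ2-PC libraries, where 8.30% of all tested genes were lower and 12.3% higher.

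Of 20 other folding genes 8 fell and 3 rose with 15d-PGJ2 and 2 fell and 1 rose with 15d-PGJ2-PC. The BiP co-chaperone gene Dnajb11 averaged 41.1 ± 2.62 FPKM with 15d-PGJ2, 47.5 ± 0.322 with 15d-PGJ2-PC and 56.1 ± 3.04 in controls and Dnajc3 15.3 ± 1.06 FPKM with 15d-PGJ2, 18.5 ± 0.640 with 15d-PGJ2-PC and 20.2 ± 0.832 in controls, while the oxidase gene Ero1l, which recharges disulfide isomerases, averaged 32.8 ± 2.43 FPKM with 15d-PGJ2, 26.1 ± 1.15 with 15d-PGJ2-PC and 19.6 ± 0.613 in controls. Dnajb11 and Dnajc3 changed by -0.44 and -0.39 with 15d-PGJ2, and Ero1l by 0.72. Of 11 oligosaccharyltransferase genes, which attach N-glycans, 6 fell with 15d-PGJ2 and 1 with 15d-PGJ2-PC. Rpn1, Stt3a and Magt1 changed by -0.38, -0.23 and -0.37 with 15d-PGJ2. Of 13 other targeting and translocation genes 4 fell and 2 rose with 15d-PGJ2; Tram1 and Sec62, which assist the channel, changed by -0.46 and -0.37 and the receptor subunit gene Srprb by 0.32. Of 8 glycan trimming genes 4 fell and 2 rose, with Uggt1, the folding sensor of glycoproteins, at -0.28, Man1b1 at 0.37 and Prkcsh at 0.19. Of 9 genes of sensor processing and related factors 5 fell; Mbtps1, the protease that cuts ATF6, changed by -0.41, Tmbim6 by -0.17 and Creb3l2 by -0.71.

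**Figure D5:**
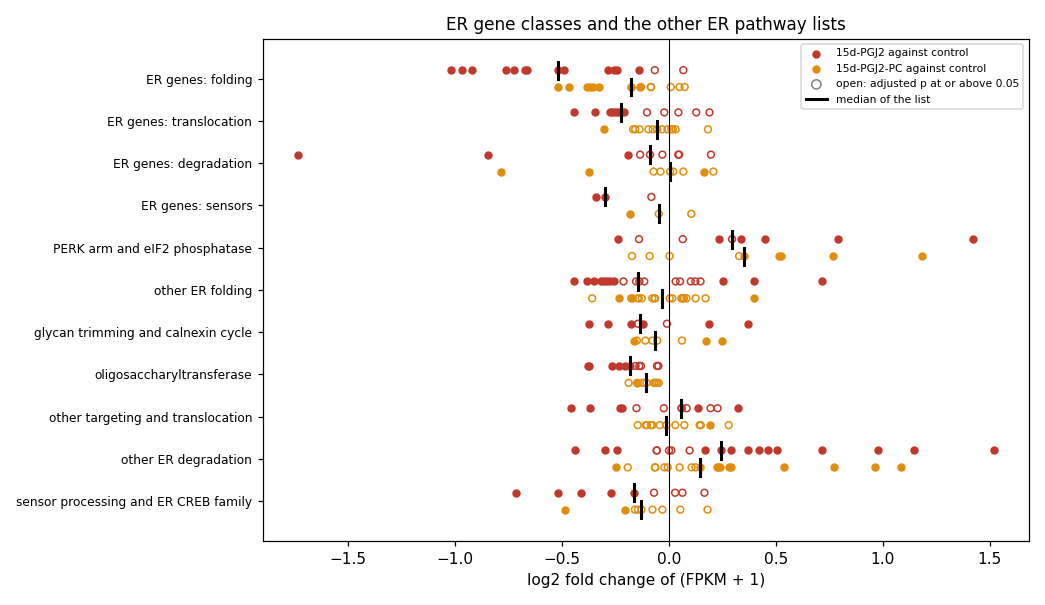
Log2 fold change of FPKM + 1 against control for the 4 classes of ER genes and 7 lists of other ER pathway genes; each point is a gene, filled where adjusted p was under 0.05, and black ticks are list medians. The PERK list (median 0.30 with 15d-PGJ2) and the other ER degradation list (0.25) lie right of 0, and folding genes (-0.52) lie left of it.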

How the data were processed

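RNA of 9 BMDM libraries was extracted with Trizol and prepared with an Illumina TruSeq RNA kit, per the labels' protocols. The authors deposited FPKM values per Entrez gene, per the file headers; BWA and build mm10 come from the submitters' processing notes, and nothing read here states the counting tool or its strand setting. FPKM was used as deposited. Steps between low values of 172 genes gave about 5.43 M reads per library (5.39 to 5.49 M; 5.63 to 5.71 M from sums over genes with a length), which limits precision for low genes.

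Genes at 1 FPKM or more in at least 3 of 9 libraries (11309) were tested on log2(FPKM + 1), where folds of low genes are understated, with limma 3.58.1 in R 4.3.3: moderated 2-sided test, intensity trend, all 9 libraries, no covariate, Benjamini-Hochberg over all tested genes of a comparison, threshold 0.05. All adjusted p-values come from it. Alternatives were quantile and median-ratio scaling, a pseudocount of 0.1, no filter or 5 FPKM, no trend, the 6 libraries of a comparison, a replicate block and each library left out. The test was checked on simulated data. Coordinates, 1-based, and promoters are RefSeq's on GRCm38.p6, the assembly mm10 names; 28 of 35 promoters began an annotated transcript on the gene's strand and 0 on the other. Overlaps come from GENCODE.

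The genes, classes and pathway lists were chosen with earlier results of these data known, so direction counts are descriptions. Values are given per library for the up to 5 genes per class with the smallest p for 15d-PGJ2 against control, all sensors, and the 5 that differed most between compounds, by size, and, outside this rule and chosen after their values were seen, for Sdf2l1 and Creld2; each pathway list is represented by the up to 3 genes of smallest p. Means are ± SD (n = 3).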

Additional observations from a re-analysis of the deposited data

How the results depend on the processing

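Under the alternatives the count of ER genes that fell with 15d-PGJ2 ranged from 21 to 27 and with 15d-PGJ2-PC from 12 to 14. Folding genes that fell numbered 12 to 13 with 15d-PGJ2 and 8 to 10 with 15d-PGJ2-PC. No called change of an ER gene turned round. With median-ratio scaling or a filter of 5 FPKM 1 ER gene rose with 15d-PGJ2 (0 to 1 with a library left out), and quantile normalization left 5 fallen translocation genes. With the filter of 5 FPKM, which leaves Derl3 untested for want of level, 1 degradation gene fell with 15d-PGJ2-PC. The rise of Edem1 with 15d-PGJ2-PC was lost without the trend or with the replicate block (0 genes in each; 0 to 1 with a library left out). Under that block 2 translocation genes fell with 15d-PGJ2-PC (1 to 2 with a library left out), and it changed no other count by over 1.5 times. Between the compounds the block ended the calls of Hsp90b1 (0.0555), Ssr1 (0.0645), Ssr2 (0.0554) and Syvn1 (0.0516). Between the compounds 12 to 21 ER genes were higher with a library left out, the lowest without 15d-PGJ2 replicate 3, and 15 to 20 otherwise. Deviations of same-numbered libraries had correlations of -0.04 to 0.05 across genes, and those of differently numbered libraries -0.07 to 0.10. The first range lies within the second, so these values do not settle whether the numbers pair libraries, which the labels do not say. Where counts moved, the cause was not tested. Of the called genes, 21 of 26 (15d-PGJ2), 10 of 14 (15d-PGJ2-PC) and 12 of 20 (between compounds) kept their call under every alternative that tested them. Depth limits Derl3 and Pdia5.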
